A study of Sus scrofa with 80 samples.

Results

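JUN, IER3 and RHOB are immediate early genes, which cells transcribe within minutes of a stimulus. Their transcripts were followed in the blood of pigs on a porcine Affymetrix array through every probe set whose only gene symbol in the platform annotation is JUN, IER3 or RHOB. These were 6 of the 23999 probe sets tested, for 3 of 6765 genes: 1 probe set for JUN (Ssc.9075.1.A1_at), 1 for IER3 (Ssc.5182.1.A1_at) and 4 for RHOB, of which the one with the highest level (Ssc.10226.1.A3_at) stands for the gene below. The pigs were 35-day-old weaned animals bled from the anterior vena cava, with no treatment named in the labels. The 80 arrays form 8 trait pairs, each with 5 arrays labelled high and 5 labelled low, taken from both tails of the distribution of a value called the self-product. W35 was combined with each of the 4 immune traits, and both CD4+ and CD8+ were also combined with either cytokine; a pair is written as CD4+--W35. CD4+ and CD8+ were measured by flow cytometry, IFN-alpha and IL-10 with immunological kits, and W35 is the body weight on day 35. How the self-product is calculated is not given in the sources used here. Genomic positions were not used.

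The protein products do different work once the early response has started. The roles given here and below are known mainly from human and mouse cells. JUN is a subunit of the transcription factor AP-1, usually joined to a FOS protein, and is switched on by MAP kinases of the JNK family. IER3 is induced by NF-kappaB and by stress and takes part in the control of cell survival. RHOB is a small GTPase that is itself a short-lived early response product, and it acts on actin and on the traffic of endosomes. In white blood cells such transcripts are known to climb quickly on activation.

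The same pigs recur across the pairs. Columns that correlated above 0.99 over all probe sets were counted as 1 pig, which gave 29 pigs. The lowest correlation between copies of 1 pig was 0.9936 and the highest between different pigs 0.9885. Of the 29 pigs, 21 recurred in at least 2 pairs, and the label of 13 was high in one pair and low in another. Differences in several pairs are therefore not independent of each other. Hybridisation controls split the arrays into a lower class (bioB minus bioC at most -3.17 in log2, 26 arrays of 11 pigs) and a higher class (at least -1.46, 54 arrays of 18 pigs), and values within these spike-in classes stand beside the results they touch. Each pair was normalised as a set of its own, so tests were made within a pair. Red cell (HBB, HBM, ALAS2), T cell (CD3D, CD3E, CD3G), platelet (PPBP, ITGB3), monocyte (CD14) and neutrophil (S100A8) markers of blood were all measured with mean levels between 7.97 and 12.27. Some other markers of these cells lay lower and also enter the marker means used below. Among them were ELANE (4.599) and MMP9 (5.27) of neutrophils, FCGR1A (5.09) of monocytes, KLF1 (5.71) of red cells and CD27 (6.19) of T cells.

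All 3 genes differed widely between pigs. After removing the offset of each pair, the JUN level over 29 pigs was lowest at 8.33, had a median of 10.01 and was highest at 11.77 in log2 expression, a 10.8-fold range. IER3 ran from 8.56 through a median of 10.11 to 11.80, a 9.47-fold range. RHOB ran from 7.81 through a median of 9.63 to 11.72, a 15.1-fold range. The SD between pigs was 0.91 for JUN, 0.91 for IER3 and 1.14 for RHOB. Columns counted as copies of 1 pig differed between pairs by an SD of 0.0346, 0.0413 and 0.0547. Copies were defined by their correlation above 0.99, so this SD is in part set by that rule. It does not measure the noise of a repeated measurement. The SD between pigs was larger than that of 98.2%, 98.1% and 99.4% of all probe sets, and than that of 97.1%, 96.9% and 99.05% of the 12000 probe sets with the higher mean levels. In whole blood, fewer cells of a type that carries a transcript and less transcript per cell cannot be told apart.

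The ordered levels of the pigs are described by their widest gap, which was not tested. The widest gap in the ordered IER3 levels was 0.30, and in JUN it was 0.60, between the 2 lowest pigs (8.33 and 8.45) and the others. Both of these pigs were in 1 pair only, as low replicates 3 and 4 of IFN-alpha--W35, and the second of them also had the lowest IER3 level (8.56). For RHOB the widest gap, 0.72, separated 5 pigs at 11.03 or more from 24 at 10.31 or less. The highest JUN pig, at 11.77, was high replicate 4 of CD8+--W35, and the next, at 11.72, was also the highest RHOB pig. The highest IER3 level, 11.80, belonged to low replicate 3 of CD8+--IFN-alpha. The next, 11.76, was in a pig that was labelled high in 3 pairs and low in 4. Levels by spike-in class overlapped for the 3 genes: JUN averaged 10.01 ± 0.83 in the lower class and 10.13 ± 0.98 in the higher, IER3 9.93 ± 0.70 and 10.36 ± 0.99, and RHOB 9.55 ± 1.09 and 9.79 ± 1.18 (SD, n = 11 and 18 pigs). The differences of -0.12, -0.43 and -0.24 had permutation p of 0.742, 0.224 and 0.591, adjusted over the 3 to 0.742, 0.672 and 0.742.

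JUN and RHOB varied together from pig to pig, while neither relation of IER3 to them passed the test. Over 29 pigs JUN and RHOB had a Pearson r of 0.67 (permutation p = 8.00e-05, adjusted over 3 pairs of genes 2.40e-04) and a Spearman correlation of 0.70 (permutation p = 4.00e-05, adjusted 1.20e-04). Without the 2 pigs whose JUN level lay farthest from the median r was 0.57, and within the lower and higher spike-in classes it was 0.65 (11 pigs) and 0.68 (18 pigs). Of the 7 pigs with the highest JUN, 6 were also among the 7 with the highest RHOB, against 2 for JUN and IER3 and 1 for IER3 and RHOB. JUN and IER3 had r = 0.21 and a Spearman correlation of 0.20 (permutation p = 0.269 and 0.288, adjusted 0.302 and 0.315). This relation had opposite signs in the lower and higher spike-in classes, at -0.37 and 0.41, and r was 0.28 without the 2 farthest pigs. IER3 and RHOB had r = 0.20 and a Spearman correlation of 0.19 (permutation p = 0.302 and 0.315, adjusted 0.302 and 0.315), with r = 0.16 without the 2 farthest pigs and r = -0.12 and 0.30 within the classes.

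**Figure D1:**
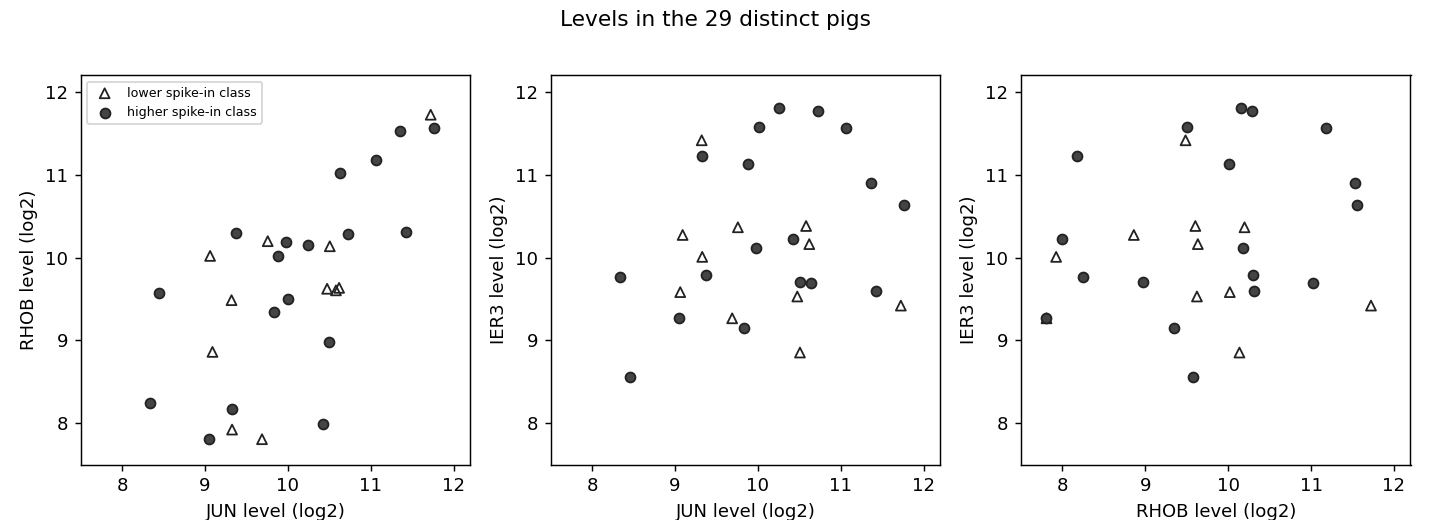
Levels of JUN, IER3 and RHOB (log2 expression) in the 29 distinct pigs, each point 1 pig; triangles are the 11 pigs of the lower spike-in class and filled circles the 18 of the higher. RHOB climbs with JUN in the first panel (r = 0.67), while IER3 shows little relation to JUN (r = 0.21) or RHOB (r = 0.20).

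Beside the main RHOB probe set, the other 3 had mean levels of 6.44 ± 0.52 (Ssc.10226.1.A2_at), 6.18 ± 0.61 (Ssc.10226.1.A1_at) and 6.08 ± 0.45 (Ssc.10226.2.A1_at; SD over 29 pigs). Their levels correlated with the main RHOB probe set at r = 0.71, 0.59 and 0.32. With JUN they correlated at 0.64, 0.54 and 0.40, in each case less than the main one, and with IER3 at 0.29, 0.13 and 0.20.

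The genes whose pattern over pigs was most like each of the 3 were picked by Pearson r among 4941 genes at or above the median level, so these r values describe and are not tested. All of them rest on the same pigs and the same arrays. For JUN, RHOB itself ranked 3rd of them. WIPI1, an autophagy protein, came first (r = 0.70), followed by GADD45G, a stress sensor that activates MAP kinases (0.69), and after RHOB by CLK1, a kinase of splicing factors (0.66). PPP6R2, a subunit of protein phosphatase 6, and RBM25, a splicing regulator, each stood at 0.65, TMEM87A, a membrane protein of the Golgi, at 0.65 and PPP1R13B, a partner of p53, at 0.64. Between the spike-in classes CLK1 (0.42 lower, 0.81 higher), PPP6R2 (0.45 and 0.85) and RBM25 (0.36 and 0.76) were less even than WIPI1 (0.77 and 0.70) or GADD45G (0.68 and 0.70).

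For IER3, NFKBIA, the inhibitor that NF-kappaB itself induces, came first with r = 0.79, and the chemokines CCL4, CCL3L1 and CXCL2 had 0.77, 0.73 and 0.71. EDN1, the precursor of endothelin, stood at 0.74, PPP1R15A, which restores translation after stress, at 0.74, the immediate early gene IER5 at 0.73 and SLC35B2, a Golgi transporter, at 0.73. All 8 were above 0.47 within each spike-in class, with NFKBIA at 0.57 in the lower and 0.91 in the higher. By contrast JUN ranked 999th and RHOB 1077th of 4941 genes for likeness to IER3.

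For RHOB, 4 genes had nearly the same r. FOS, the partner of JUN in AP-1, DUSP1, a phosphatase that ends MAP kinase signals, and ZFP36, which destabilises cytokine mRNA, each had r = 0.77 with RHOB, as did TOMM40L, a mitochondrial import protein. CLK1 stood at 0.76, GADD45A, a p53-responsive stress gene, at 0.75, the zinc finger factor EGR1 at 0.73 and VCPIP1, a deubiquitinase, at 0.72. JUN was 18th by this measure. CLK1 was the one gene among the 8 nearest to both JUN and RHOB.

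**Figure D2:**
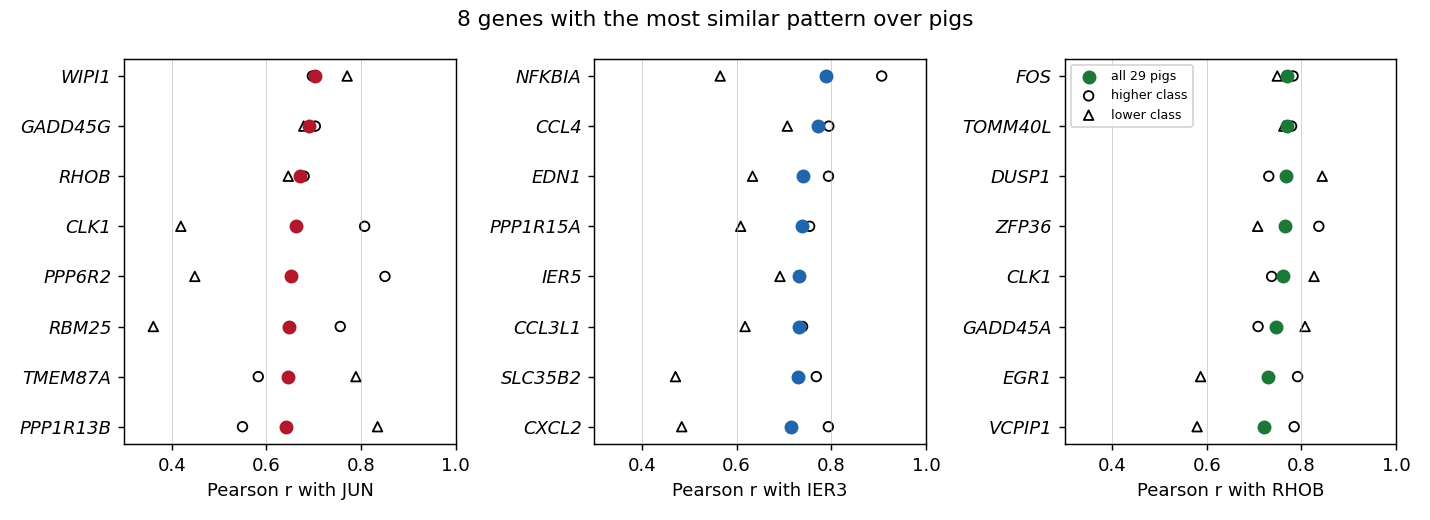
The 8 genes most like JUN, IER3 and RHOB over 29 pigs, by Pearson r on the horizontal axis, with r over all pigs (filled circles), over the 18 pigs of the higher spike-in class (open circles) and over the 11 of the lower (triangles). For IER3 the highest is NFKBIA at 0.79 and for RHOB it is FOS at 0.77.

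The 36 immediate early genes measured on the array were set beside the 3 genes in the same way. Of the 35 other genes, r with IER3 was above 0.5 for 11 (31.4%, against 1.18% of 6764 genes), r with RHOB for 8 (22.9%, against 2.96%) and r with JUN for 4 (11.4%, against 1.40%). The median r was 0.33 for IER3, 0.23 for RHOB and 0.15 for JUN, where the medians over all genes were 0.04, -0.01 and -0.03. The 6764 genes were not matched to the early genes for expression level. Of them 4941 were at or above the median level, while most of the early genes lay well above it. CXCL8, the neutrophil chemokine, was above 0.5 with each of them, at 0.56 with IER3, 0.52 with RHOB and 0.53 with JUN. The others of JUN were RHOB, GADD45A at 0.60 and ZFP36 at 0.51. With FOS, its partner in AP-1, JUN had an r of 0.40, while RHOB had 0.77 and IER3 0.03. ATF3, another AP-1 protein, stood at 0.63 with IER3, 0.28 with JUN and 0.19 with RHOB. MYC, the growth regulator, stood at -0.29 with JUN.

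**Figure D3:**
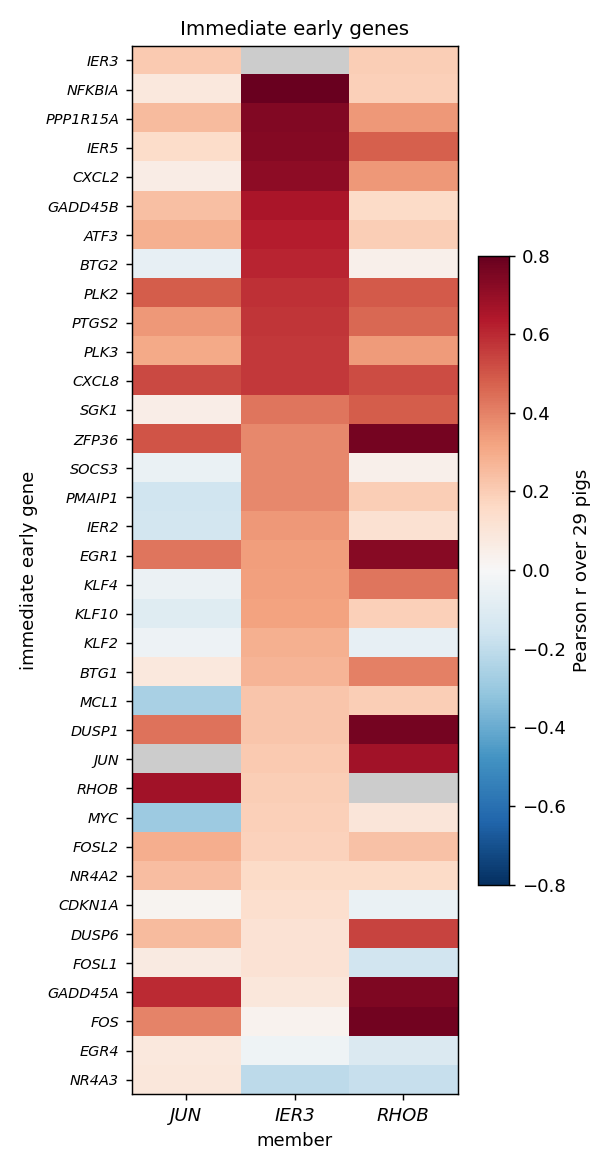
Pearson r over 29 pigs of each of 36 immediate early genes (rows, ordered by r with IER3) with JUN, IER3 and RHOB (columns); red is positive, blue negative and grey marks a gene with itself. The strongest cells of IER3 (NFKBIA, 0.79) lie in other rows than those of RHOB (FOS, DUSP1 and ZFP36, 0.77 each).

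The question in each pair was whether blood expression differs between pigs with a high and a low self-product. After adjustment in limma none of the 23999 probe sets, and so none of JUN, IER3 or RHOB, was below 0.05 for any pair (0%), and the smallest adjusted p of the 6 probe sets was 0.552. By direction, 18 of the 24 differences (3 genes in 8 pairs) were higher in the high group. The median difference over all genes lay between -0.02 (CD4+--W35) and 0.02 (CD4+--IFN-alpha). The 24 are not separate outcomes, since the pairs share pigs and JUN and RHOB varied together, and this count was not tested. At an unadjusted p under 0.05 in limma there were 5 of 24, all higher in high, and these lay in CD4+--W35, CD8+--W35 and CD4+--IL-10. None of the 24 separated all high from all low arrays.

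**Figure D4:**
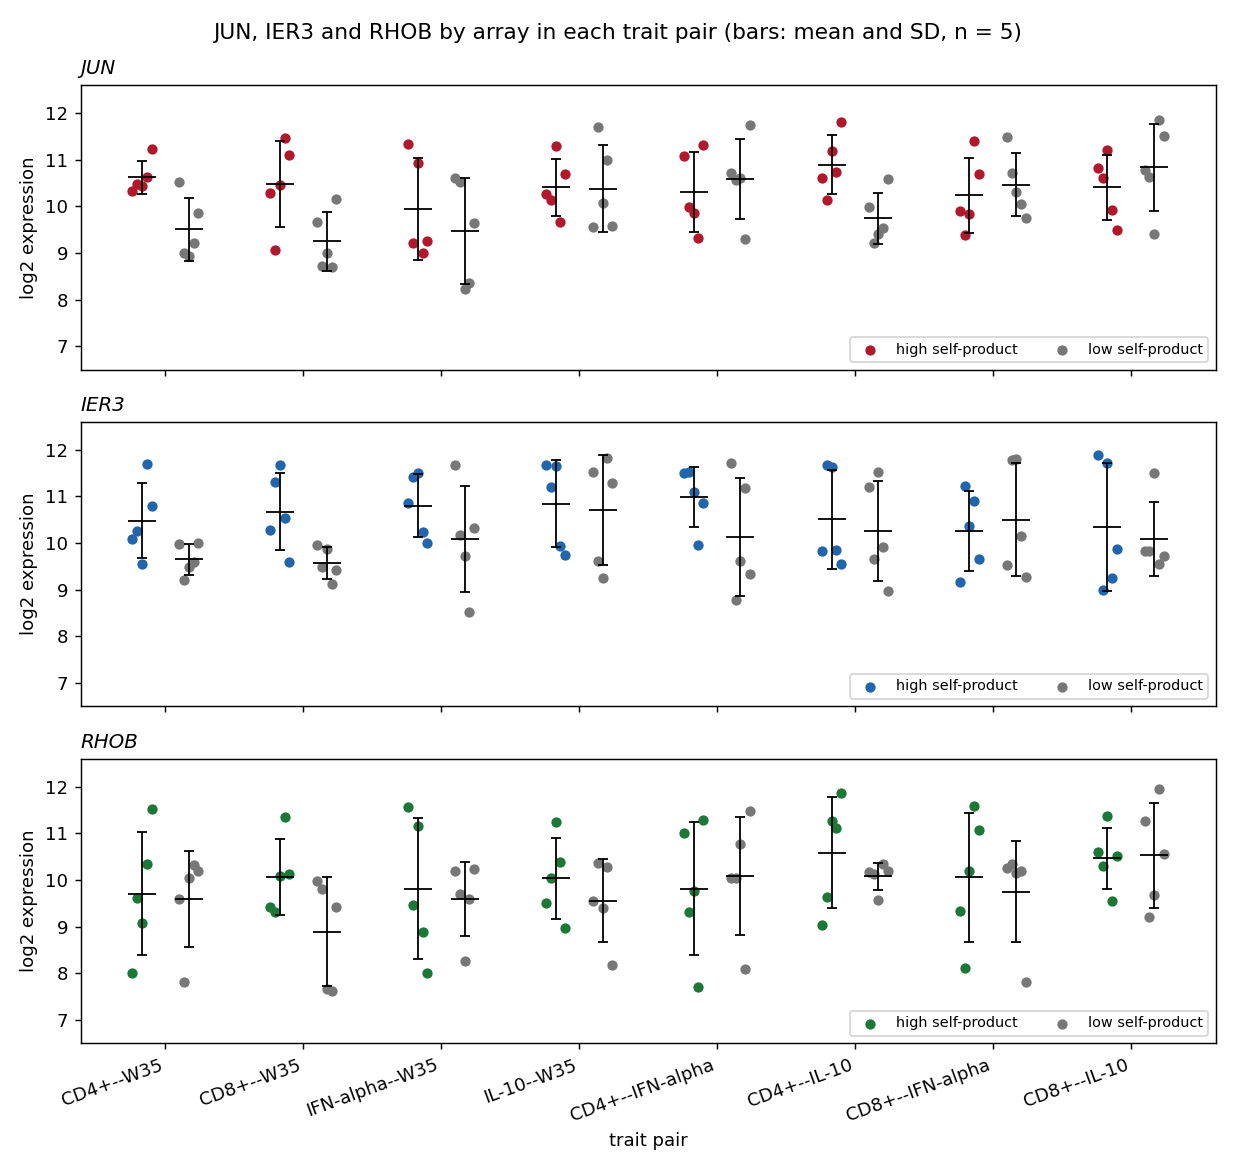
log2 expression of JUN, IER3 and RHOB on each of the 80 arrays, by trait pair, with the high group in colour on the left and the low group in grey on the right (horizontal bar and whiskers: mean and SD, n = 5). In CD4+--W35 and CD8+--W35 the low arrays of IER3 all lie at 9.996 or below, while the high arrays reach 11.69 and 11.67.

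In CD4+--W35, JUN and IER3 had higher means in the high group, short of the adjusted threshold. JUN measured 10.32, 10.47, 10.44, 10.63 and 11.22 on the high arrays, against 10.52, 8.99, 8.94, 9.21 and 9.85 on the low arrays. The high arrays were tightly grouped and 4 of the 5 low arrays lay below all of them, the exception being low replicate 1. The group means were 10.62 ± 0.36 in high and 9.504 ± 0.68 in low (SD, n = 5 each), a difference of 1.11 (SE 0.30, 2.16-fold), with limma p = 0.00355, adjusted p = 0.552 and an exact permutation p of 0.0317. IER3 measured 10.10, 10.26, 9.56, 11.69 and 10.80 on the high arrays, against 9.99, 9.20, 9.48, 9.59 and 9.996 on the low arrays, so 4 of 5 high arrays lay above every low array. Its difference was 0.83 (SE 0.34, 1.78-fold; limma p = 0.0337, adjusted p = 0.552; exact permutation p = 0.0476), and without high replicate 4 it was 0.53. RHOB differed by 0.11 (SE 0.63), with both groups spread from about 8 upwards: 8.02 to 11.52 in high and 7.82 to 10.33 in low. So 2 of 3 genes were at an unadjusted p under 0.05 and higher, where 4.13% of all probe sets were and 4.8% were lower at this level.

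In CD8+--W35 all 3 genes had higher means in the high group, again short of the adjusted threshold. JUN measured 10.27, 9.05, 10.46, 11.45 and 11.09 on the high arrays, against 9.66, 8.73, 8.997, 8.69 and 10.16 on the low arrays. The group means were 10.47 ± 0.92 and 9.25 ± 0.64 (SD, n = 5 each), a difference of 1.22 (SE 0.44, 2.33-fold) with p = 0.0174 in limma and an exact permutation p of 0.0397. Only high replicate 2 lay within the range of the low arrays. IER3 measured 10.27, 11.31, 11.67, 10.53 and 9.59 on the high arrays, against 9.96, 9.49, 9.87, 9.12 and 9.42 on the low arrays, and only high replicate 5 fell below a low array. Its difference was 1.10 (SE 0.35, 2.14-fold; limma p = 0.00969; exact permutation p = 0.0238). JUN and IER3 thus owed their overlap to different pigs. The adjusted p was 1.0 for both.

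RHOB in CD8+--W35 was read by 4 probe sets. The main one measured 9.42, 9.31, 10.08, 11.36 and 10.12 on the high arrays, against 9.99, 9.80, 7.66, 7.61 and 9.42 on the low arrays, a difference of 1.16 (SE 0.55, 2.24-fold; limma p = 0.0583; exact permutation p = 0.127). Low replicates 3 and 4 were far below the rest. The next probe set, Ssc.10226.1.A2_at, measured 6.30, 6.37, 6.29, 7.19 and 6.91 in high, against 6.15, 5.80, 5.64, 5.50 and 5.90 in low. Another, Ssc.10226.1.A1_at, measured 6.36, 5.93, 5.80, 6.40 and 7.06 in high, against 5.59, 5.08, 5.33, 5.47 and 5.69 in low. On both, every high array lay above every low array, as for 0.288% of all probe sets in this pair, with differences of 0.82 (SE 0.20) and 0.88 (SE 0.23) and limma p of 0.00205 and 0.00272. The exact permutation p of each was 0.00794, the smallest that 5 against 5 arrays allow, and the adjusted p was 1.0. The last one, Ssc.10226.2.A1_at, differed by 0.14 (SE 0.19). At an unadjusted p under 0.05, 2 of the 3 genes were higher by their main probe set, where 1.77% of all probe sets were; 1.65% were lower at this level and 0.121% lower without overlap.

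Both of these pairs involve body weight and they share 5 of their 10 pigs, all with the same label in both, so JUN and IER3 were not measured independently in them. Within the spike-in classes of CD8+--W35 the JUN difference was 0.37 in the lower class (2 high and 3 low arrays) and 1.83 in the higher (3 and 2), that of IER3 was 1.19 and 1.06, and that of RHOB 0.40 and 1.72. In the higher class of CD4+--W35 (4 high and 3 low) JUN differed by 1.30, IER3 by 0.94 and RHOB by 0.29, and in the lower class (1 high and 2 low) by 0.74, 0.53 and -0.22. Without high replicate 4 of CD8+--W35, the highest JUN array there, JUN differed by 0.98, IER3 by 1.14 and RHOB by 0.84.

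In CD4+--IL-10, JUN had the higher mean in the high group, while IER3 and RHOB stayed within their spread. This pair shares 3 pigs with CD4+--W35, all 3 with the same label in both. With CD8+--W35 it shares 2 pigs, 1 of them with the same label, so JUN was not measured independently here either. JUN measured 10.60, 10.13, 11.19, 10.74 and 11.80 on the high arrays, against 9.99, 9.21, 9.41, 9.53 and 10.58 on the low arrays. Here 4 of 5 high arrays were above all low arrays and 4 of 5 low arrays were below all high ones, with low replicate 5 and high replicate 2 crossing over. The means were 10.89 ± 0.63 and 9.74 ± 0.55 (SD, n = 5 each), a difference of 1.15 (SE 0.33, 2.22-fold; limma p = 0.00509, adjusted p = 0.749; exact permutation p = 0.0159). It was 2.07 within the lower spike-in class (1 high and 3 low arrays) and 0.91 within the higher (4 and 2). IER3 averaged 10.51 ± 1.05 and 10.25 ± 1.08, a difference of 0.25 (SE 0.58). RHOB averaged 10.59 ± 1.19 in high, where it spread from 9.04 to 11.87, and 10.08 ± 0.29 in low, where all 5 arrays lay between 9.58 and 10.34. Its difference of 0.50 (SE 0.47) was within that spread. JUN was thus the 1 gene of 3 at an unadjusted p under 0.05 and higher, where 2.32% of probe sets were.

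The other 5 pairs gave no difference beyond the spread between pigs, and their 95% intervals remained wide. In IFN-alpha--W35, JUN differed by 0.48 (SE 0.60), IER3 by 0.72 (SE 0.51) and RHOB by 0.22 (SE 0.65). That pair held opposite values in its spike-in classes: JUN differed by -0.92 in the lower class (3 high and 2 low arrays) and by 2.07 in the higher (2 and 3), and RHOB by -1.18 and 2.01, while IER3 gave 0.30 and 1.21. In IL-10--W35 the differences were 0.03 (SE 0.43) for JUN, 0.15 (SE 0.57) for IER3 and 0.48 (SE 0.47) for RHOB. The 3 other RHOB probe sets pointed the other way there, at -0.19, -0.42 and -0.30.

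In CD4+--IFN-alpha, IER3 differed by 0.86 (SE 0.54, 95% interval -0.32 to 2.05), with values between 9.96 and 11.52 on the high arrays and between 8.78 and 11.72 on the low arrays. JUN differed by -0.27 (SE 0.47) and RHOB by -0.27 (SE 0.73) in that pair. Its spike-in classes also held opposite values. In the lower class (1 high and 2 low arrays) JUN differed by -1.83, IER3 by 0.90 and RHOB by -3.04. In the higher class (4 and 3) these were 0.35, 0.41 and 0.70. In CD8+--IFN-alpha JUN differed by -0.22 (SE 0.40), IER3 by -0.24 (SE 0.56) and RHOB by 0.31 (SE 0.66). The lower class there (1 high and 1 low array) gave 0.08, 1.11 and 2.37, and the higher (4 and 4) -0.30, -0.58 and -0.21. In CD8+--IL-10 JUN differed by -0.43 (SE 0.45, 95% interval -1.42 to 0.57), IER3 by 0.25 (SE 0.61) and RHOB by -0.06 (SE 0.50). Its lower class (1 high and 2 low arrays) gave -0.03, -1.54 and -0.52, and its higher class (4 and 3) -0.61, 0.88 and 0.17. None of the 3 genes had an unadjusted p under 0.05 in these 5 pairs. Over all probe sets the percentages that were higher at this level were 2.2% in IFN-alpha--W35 (2.04% lower), 1.74% in IL-10--W35 (1.45% lower), 2.05% in CD4+--IFN-alpha (1.82% lower), 1.2% in CD8+--IFN-alpha (0.779% lower) and 1.93% in CD8+--IL-10 (0.6% lower). Without overlap, the percentages higher and lower were 0.308% and 0.329%, 0.221% and 0.313%, 0.196% and 0.308%, 0.117% and 0.167%, and 0.146% and 0.15% in the same order of pairs.

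**Figure D5:**
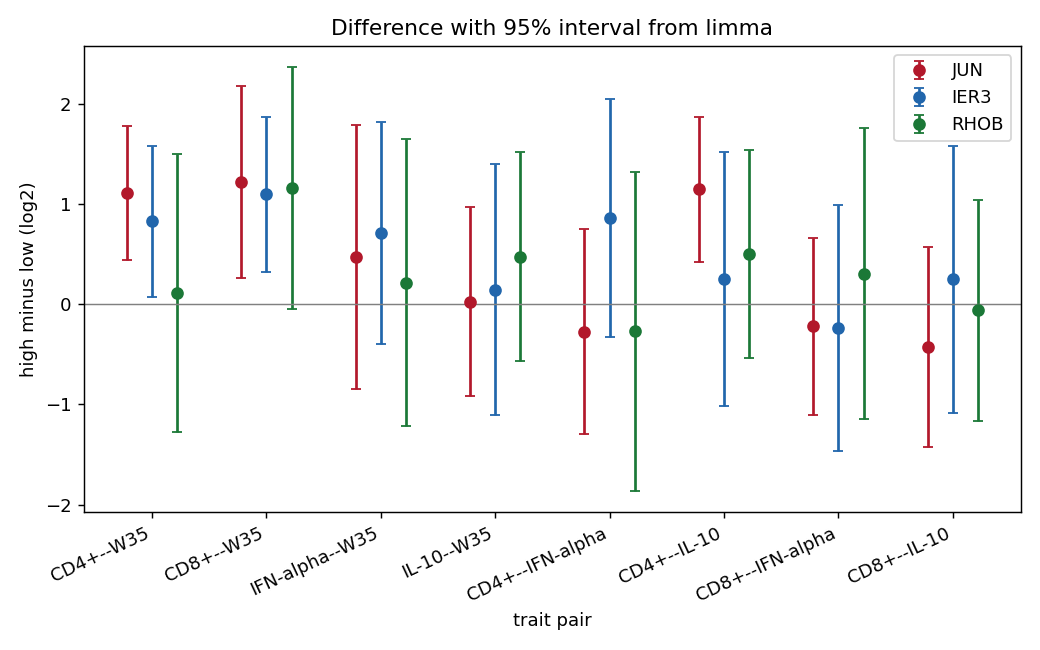
Difference, high minus low in log2, of JUN, IER3 and RHOB (main probe set) in each trait pair, with 95% intervals from limma (5 high and 5 low arrays per pair, unadjusted). The intervals of JUN lie above 0 in CD4+--W35, CD8+--W35 and CD4+--IL-10, and those of IER3 in CD4+--W35 and CD8+--W35.

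Set side by side across pairs, which were normalised separately and share pigs, the 16 group means of JUN ran from 10.89 (CD4+--IL-10 high) down to 9.25 (CD8+--W35 low). Those of IER3 ran from 10.99 (CD4+--IFN-alpha high) to 9.57 (CD8+--W35 low), and those of RHOB from 10.59 (CD4+--IL-10 high) to 8.90 (CD8+--W35 low). The low group of CD8+--W35 had the lowest mean for each gene, in values that still carry the offset of each pair. The mean over all probe sets ran from 5.66 to 6.08 between pairs. RHOB in 1 pig that is in both pairs read 10.08 in CD8+--W35 and 10.60 in CD8+--IL-10. The place of a group in this order therefore mixes its pigs with the normalisation of its pair. The largest steps between neighbours in the order were 0.29, 0.44 and 0.66, and the SD within a group ran from 0.36 to 1.13 for JUN, 0.34 to 1.37 for IER3 and 0.29 to 1.51 for RHOB. Each of these steps was smaller than the SD of at least 1 of the groups beside it, and no order among neighbours held up against it. The second highest group for JUN, CD8+--IL-10 low at 10.83 ± 0.94, and for RHOB, again CD8+--IL-10 low at 10.53 ± 1.12, carried the low label.

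The lists of related genes were described by their counts and medians beside all 6765 genes, since none had a member past the adjusted threshold in any pair. An adjusted p from limma beside a gene of these lists marks one whose unadjusted p was under 0.05. In CD8+--W35 most early genes had higher means in the high group. Of 21 measured effectors and feedback regulators (33 listed; IER3 and RHOB are among the 21), 18 were higher and 3 lower in high, with a median of 0.55 against 0.01 over all genes, of which 51.4% were higher. All 5 measured AP-1 genes (13 listed, JUN included) were higher, with a median of 0.79, as were 8 of 10 zinc finger, nuclear receptor and other early factors (15 listed). NR4A2, an orphan nuclear receptor, was higher by 0.73 (SE 0.23; limma adjusted p = 1.0). The AP-1 gene FOSL2 was higher by 1.01 (SE 0.53), EGR1 by 1.71 (SE 0.82) and ZFP36 by 0.91 (SE 0.45). Beside JUN, IER3 and NR4A2, no gene of these 3 lists had an unadjusted p under 0.05 in limma. Without high replicate 4, 17 of the 21 effectors and all 5 AP-1 genes were higher, but their medians were 0.29 and 0.40. Within the lower and higher spike-in classes 19 and 16 of 21 effectors were higher, with medians of 0.23 and 0.82.

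In CD4+--W35, 4 of 5 AP-1 genes (JUN included) were higher, with a median of 0.65; FOSL2 differed by 0.83 (SE 0.50) and ATF3 by 0.65 (SE 0.39). The effectors were divided, 11 higher and 10 lower (median 0.03), and 7 of 10 zinc finger and other factors were lower (median -0.26, against -0.02 over all genes). FOS differed by -1.02 (SE 0.59), opposite to JUN. MCL1, a survival factor of the BCL2 family, differed by -0.48 (SE 0.20; limma adjusted p = 0.552) and NR4A2 by 0.68 (SE 0.29; adjusted p = 0.552). GADD45B, a stress gene that acts on MAP kinases, was higher by 0.89 (SE 0.44). NFKBIB, an inhibitor of NF-kappaB, was higher by 0.78 (SE 0.25; limma adjusted p = 0.552), 1 of 4 measured genes of that list at an unadjusted p under 0.05.

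In CD4+--IL-10, the differences of JUN and FOS had opposite signs. FOS averaged 10.72 in high and 11.98 in low, a difference of -1.26 (SE 0.44; limma adjusted p = 0.749). KLF4, a zinc finger factor of monocytes, averaged 7.07 in high and 8.63 in low, a difference of -1.56 (SE 0.26; limma adjusted p = 0.749), with no overlap between groups. The percentage of all probe sets lower at an unadjusted p under 0.05 was 3.86% in that pair, and 0.413% were lower without overlap. The effectors were divided, 10 higher and 11 lower (median -0.03). Of 8 measured monocyte markers 6 were lower in high, and the mean of that list was 8.82 in high and 9.14 in low, from 8.01 to 9.53 on the high arrays and from 8.25 to 9.65 on the low arrays; its part in the FOS and KLF4 values was not tested. Of 6 neutrophil markers 5 were higher, with list means of 8.33 in high (7.39 to 9.504) and 7.66 in low (6.82 to 8.04), and their part in the JUN difference was not tested.

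In IFN-alpha--W35, 19 of 21 effectors had higher means in high (median 0.40, against -0.01 over all genes). CDKN1A, an inhibitor of the cell cycle, was higher by 0.91 (SE 0.28; limma adjusted p = 0.999), CXCL8 by 0.94 (SE 0.30; adjusted p = 0.999) and PMAIP1, a p53-induced killer protein, by 1.003 (SE 0.39; adjusted p = 0.999). The count was 12 of 21 within the lower spike-in class and 20 of 21 within the higher. All 5 platelet markers were higher in this pair, with list means of 10.34 in high (9.96 to 10.96) and 9.67 in low (8.90 to 10.54), and all 8 monocyte markers were lower, with list means of 8.69 in high (8.22 to 9.13) and 9.23 in low (8.72 to 10.03); their part in the effectors was not tested. In CD4+--IFN-alpha all 5 AP-1 genes were lower (median -0.30) while 16 of 21 effectors were higher (median 0.20, against 0.02 over all genes).

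The MAP kinase list holds kinases upstream of JUN and the stress genes GADD45A and GADD45B. Of its 10 measured genes (16 listed), 5 to 8 were higher depending on the pair, with medians from -0.03 to 0.26. The highest median was that of CD8+--W35, where the kinase MAP2K2 was higher by 0.67 (SE 0.32) and the p38 kinase MAPK14 by 0.64 (SE 0.33), which in IL-10--W35 was higher by 0.68 (SE 0.31; limma adjusted p = 1.0).

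Of the heat shock chaperones, which mark another kind of stress, DNAJB1, HSPA6 and BAG3 had their highest level in the same pig. DNAJB1, a co-chaperone of HSP70, reached 13.99 in high replicate 4 of CD8+--W35, where the next pig stood at 11.21 and the median at 9.11, and HSPA6 reached 12.93 (next 9.67) and BAG3 10.31 (next 9.06). This was the pig with the highest JUN level and the second highest RHOB level (11.56). DNAJB1 correlated with JUN at r = 0.60 over 29 pigs and 0.58 without that pig, HSPA6 at 0.28 and -0.03, and BAG3 at 0.43 and 0.28. Over all 12 measured chaperones the median r with JUN was 0.01, against -0.03 over all genes, and 6 were positive. Of 12 chaperones (15 listed), 11 were higher in CD8+--W35 (median 0.28), and 10 without that array (median 0.13). DNAJB1 was also higher in the high groups of CD4+--W35, by 0.75 (SE 0.22; limma adjusted p = 0.552) with no overlap between groups, and of CD4+--IL-10, by 0.81 (SE 0.28; adjusted p = 0.749), which are 2 of the 3 pairs where JUN had an unadjusted p under 0.05. Higher without overlap were 1.18% of all probe sets in CD4+--W35, where 0.463% were lower, and 0.704% in CD4+--IL-10. The chaperone list as a whole did not follow DNAJB1 there. Of the 12, 5 were higher and 7 lower in CD4+--W35 (median -0.05), and 5 and 7 in CD4+--IL-10 (median -0.01).

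RNA quality and cell makeup were set beside the 3 genes over pigs. The actin controls, as 3′ minus 5′ signal, correlated with JUN, IER3 and RHOB at r = 0.17, -0.11 and -0.14. Without the 2 farthest pigs these were 0.29, 0.04 and 0.05. Actin gave -0.13, -0.05 and -0.36 within the lower spike-in class and 0.46, 0.09 and 0.04 within the higher. The gapdh controls, taken in the same way, had r = 0.004, 0.02 and -0.24 over all pigs. Of 27 such relations with quality controls and cell marker means, none passed after adjustment. The largest was that of JUN with the mean of 9 T cell markers (13 listed), r = -0.53 and a Spearman correlation of -0.36 (permutation p = 0.00304 and 0.0573, adjusted over 27 to 0.0821 and 0.54), which was -0.26 without the 2 farthest pigs and -0.57 within both spike-in classes. IER3 and the mean of 6 neutrophil markers (13 listed) had r = 0.46 and a Spearman correlation of 0.40 (permutation p = 0.0116 and 0.0336, adjusted 0.156 and 0.54), with 0.54 without the 2 farthest pigs, 0.09 in the lower class and 0.71 in the higher. JUN and the same neutrophil mean had r = 0.38 and a Spearman correlation of 0.29 (permutation p = 0.0428 and 0.120, adjusted 0.251 and 0.54). Without the 2 farthest pigs r was 0.22, and within the lower and higher classes 0.42 and 0.38. RHOB and T cell markers had r = -0.36 (adjusted permutation p = 0.258), with 0.02 without the 2 farthest pigs and -0.62 and -0.24 within the lower and higher classes. The mean of 6 red cell markers (16 listed) had r = -0.37 with JUN and -0.39 with IER3 (permutation p = 0.0465 and 0.0393, adjusted 0.251 for both). Without the 2 farthest pigs these were -0.26 and -0.18, and within the lower and higher classes 0.10 and -0.56 for JUN and 0.16 and -0.54 for IER3. In CD8+--W35 actin averaged 3.08 ± 0.45 in high and 2.71 ± 0.98 in low (SD, n = 5 each), 8 of 9 T cell markers were lower with list means of 8.27 in high (7.62 to 8.72) and 8.63 in low (8.41 to 9.004), and 5 of 6 cytotoxic markers were higher with list means of 9.74 in high (9.09 to 10.14) and 9.08 in low (8.77 to 9.38). In CD4+--W35 all 6 cytotoxic markers were higher, with list means of 9.94 in high (9.67 to 10.23) and 9.06 in low (8.82 to 9.33), and actin was 2.90 ± 0.70 and 2.73 ± 1.06. Red cell markers were lower there in 5 of 6, with list means of 8.69 in high (7.29 to 9.87) and 9.89 in low (8.16 to 10.94), and platelet markers in 4 of 5, at 9.35 in high (8.91 to 10.21) and 9.86 in low (9.51 to 10.49). In CD8+--W35 all 6 red cell markers were lower, at 8.59 in high (7.08 to 9.78) and 9.26 in low (8.02 to 10.41), as were all 5 platelet markers, at 9.31 in high (8.72 to 9.80) and 9.88 in low (9.36 to 10.40). Neutrophil markers were higher in all 6 in CD4+--W35, at 7.97 in high (7.37 to 9.45) and 7.75 in low (7.53 to 7.9998). In CD8+--W35, 5 of 6 were higher, at 7.89 in high (7.202 to 9.24) and 7.496 in low (7.33 to 7.801). Monocyte markers were lower in 6 of 8 in CD4+--W35, at 8.76 in high (8.17 to 9.89) and 9.14 in low (8.45 to 9.43). In CD8+--W35, 7 of 8 were lower, at 8.72 in high (7.86 to 9.78) and 8.95 in low (8.45 to 9.23). The part of these cells in the JUN and IER3 differences was not tested.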

How the data were processed

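The authors deposited log2 expression values per probe set for each trait pair, and limma and RMA are the tools named per the submitters' processing notes, with versions not given in the sources used here. Of 24123 probe sets, 124 controls were left out, and 23999 were tested. The platform annotation gives 1 symbol to 10069 of them, several to 198 and none to 13732, and the probe set with the highest mean level stands for a gene. RMA moves all arrays of a pair to a common distribution, so a shift shared by all genes would not be seen. The number of arrays limits the precision, as arrays give no counts.

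Each pair was fitted on its own 10 arrays with limma 3.58.1 (lmFit and eBayes, R 4.3.3), with Benjamini-Hochberg adjustment over 23999 probe sets and a threshold of 0.05. Exact permutation tests were two-sided over all assignments of 5 against 5 arrays. Pig levels came from an additive fit of pig and pair. Correlations used 100000 permutations (scipy 1.17.1). On simulated data with 100 probe sets changed 2-fold and 100 changed 4-fold, the fits recovered 46 to 66 and 88 to 95 of them over the pairs, with 4 to 10 false calls. The changed probe sets were drawn at random from all those tested, each with its own spread. This recovery is not that of JUN, IER3 or RHOB, whose SD between pigs was larger than that of at least 98.1% of probe sets. The text names all 3 members, the 8 genes with the highest r with each, and per list and pair up to 4 genes with the smallest p; HSPA6, BAG3 and the genes of the list correlations were picked after their values were seen. Members and lists were chosen with earlier results of these data known. Same-numbered arrays of the high and low groups had correlated deviations between -0.544 and 0.365, never above 0.1 for all 5 numbers of a pair. The main fits therefore took the numbers as unpaired. The values were above 0.1 for 4 numbers in CD4+--W35 and 3 in CD8+--IL-10, so this check does not settle whether the numbers pair arrays. Some of the gene lists examined are not reported here.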

Additional observations from a re-analysis of the deposited data

Results flagged for a closer look

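Of the 48 groups of 5 arrays (3 genes, 16 groups), 3 held 1 array far from its 4 companions by Dixon's 95% critical value, which chance alone gives in about 1 of 20 groups. IER3 on low replicate 3 of CD8+--IL-10 was 11.49, where the others lay between 9.56 and 9.84. RHOB on low replicate 3 of CD4+--IL-10 was 9.58, where the others lay between 10.12 and 10.34, and this array is of the same pig. RHOB on low replicate 5 of CD8+--IFN-alpha was 7.81, where the others lay between 10.16 and 10.34, on the array with the highest actin value (3′ minus 5′), 3.99.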

How the results depend on the processing

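Of 237 alternative values of the 24 member differences, 222 kept their direction and side of the threshold and 15 reversed. None passed the threshold, and no cause was tested. Some settings leave the difference itself unchanged, so their direction could not reverse. These were eBayes with trend and robust, the exact permutation test, the filter at the median level and the replicate block. Each gave 24 of the 222 values, which therefore bear only on the side of the threshold. Array weights gave -0.0566 for RHOB in IFN-alpha--W35, 0.483 for JUN and 0.829 for RHOB in CD4+--IFN-alpha, 0.0254 for JUN in CD8+--IFN-alpha, -0.190 for IER3 and 0.0495 for RHOB in CD8+--IL-10, and 1 probe set past the threshold in IL-10--W35. Repeated quantile normalisation gave -0.0583 for JUN in IL-10--W35. The other RHOB probe sets gave -0.417, -0.190 and -0.301 in IL-10--W35, -0.0882 in CD8+--IFN-alpha, and 0.146 and 0.192 in CD8+--IL-10. The spike-in class as a block, which could not be fitted in IL-10--W35, gave -0.0628 for IER3 and 25 probe sets past the threshold in CD4+--IL-10, none of the 3 genes among them, and the actin covariate gave -0.176 for RHOB in CD8+--IFN-alpha. With the replicate number as a block, JUN differed by 1.15 (SE 0.20) in CD4+--IL-10 and by 1.11 (SE 0.27) in CD4+--W35, and this block changed no call. Leaving out 1 array at a time reversed 32 of 240 values and took none past the threshold. The ranges that crossed 0 were -0.338 to 0.538 for RHOB in CD4+--W35, -0.221 to 0.670 for RHOB in IFN-alpha--W35, -0.190 to 0.355 for JUN in IL-10--W35, -0.216 to 0.427 for IER3 in IL-10--W35, -0.593 to 0.0153 for JUN in CD4+--IFN-alpha, -0.771 to 0.254 for RHOB in CD4+--IFN-alpha, -0.0670 to 0.569 for IER3 in CD4+--IL-10, -0.510 to 0.0375 for JUN in CD8+--IFN-alpha, -0.549 to 0.0854 for IER3 in CD8+--IFN-alpha, -0.176 to 0.795 for RHOB in CD8+--IFN-alpha, -0.135 to 0.601 for IER3 in CD8+--IL-10 and -0.392 to 0.294 for RHOB in CD8+--IL-10. Those of JUN stayed between 0.961 and 1.37 in CD4+--W35, 0.976 and 1.58 in CD8+--W35, and 0.922 and 1.36 in CD4+--IL-10. Without low replicate 2, IER3 differed by 0.527 in CD4+--IFN-alpha, and without low replicate 4 by 0.326 in IFN-alpha--W35, where JUN differed by 0.129 without high replicate 1. RHOB differed by 0.131 in IL-10--W35 without low replicate 5 and by 0.182 in CD4+--IL-10 without high replicate 5. JUN differed by -0.174 in CD8+--IL-10 without low replicate 4, and IER3 by 0.527 in CD4+--W35 without high replicate 4. The probe sets past the threshold ranged from 0 to 6 in CD4+--W35, 0 to 1 in IFN-alpha--W35, 0 to 2 in IL-10--W35 and 0 to 7 in CD4+--IFN-alpha.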
